A study of Mus musculus with 21 samples.

Results

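B4galnt2, Nrp1, Fgd5 and Lzts2 are 4 of the 11736 genes in a table of RNA levels from cultured mouse natural killer (NK) cells. They were selected on the data: their levels were close to 0 in control cells and raised in cells lacking Ikaros, the zinc finger transcription factor encoded by Ikzf1. The values that chose them are those of the control and Ikaros-deficient libraries, so the difference between these groups is given below as a description, with no test. All 4 were among the 10032 genes with at least 1 RPKM (reads divided by gene length and by sequencing depth) in at least 3 of 15 libraries.

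The NK cells were sorted from the spleens of mice with an NK cell conditional knockout and were grown in medium with 50 ng/ml human interleukin 15, a cytokine that keeps NK cells alive. Polyadenylated RNA was sequenced from 4 genotypes. Cre only cells carried the recombinase and served as controls (libraries S16 to S19). Ikzf1 KO cells lacked Ikaros (S12 to S15), Ikzf3 KO cells lacked Aiolos, the related factor encoded by Ikzf3 (S1 to S4), and DKO cells lacked both (S5 to S7). The promoter driving Cre, the structure of the alleles and the age of the mice are not given in the sources used here. The labels call the samples biological replicates but do not say which mouse each came from, and the column names give the genotype and not the culture. The 6 directly sorted samples were not analysed here.

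Ikaros and Aiolos bind DNA through zinc fingers that recognise a GGGAA core, form dimers with each other, and can silence genes through chromatin remodelling and deacetylase complexes. The 4 genes have unlike roles. B4galnt2 encodes the glycosyltransferase that adds a terminal N-acetylgalactosamine to sialylated glycans and so makes the Sd(a) antigen. Nrp1 encodes neuropilin 1, a co-receptor for class 3 semaphorins and vascular endothelial growth factor (VEGF) that is also known as a surface protein of regulatory T cells and plasmacytoid dendritic cells. Fgd5 encodes a guanine nucleotide exchange factor for the small GTPase Cdc42 and is known from endothelial cells and haematopoietic stem cells. Lzts2 encodes a leucine zipper protein that binds beta-catenin and the microtubule-severing enzyme katanin.

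The genes lie on 4 chromosomes. In GENCODE mouse release 21 (build mm10), B4galnt2 (ENSMUSG00000013418) is at chr11:95865943-95914891 on the − strand. Nrp1 (ENSMUSG00000025810) is at chr8:128358604-128503363, Fgd5 (ENSMUSG00000034037) at chr6:91978878-92076004 and Lzts2 (ENSMUSG00000035342) at chr19:45014414-45027111, all on the + strand. Each gene has an annotated neighbour that overlaps it without a row in the table: Gm11534 antisense to B4galnt2, the microRNA gene Mir1903 in Nrp1, Gm44095 and the antisense 4930466I24Rik in Fgd5, and Pdzd7 on the opposite strand at Lzts2. The libraries were made with a kit that keeps strand, but whether counting used it is not given in the sources used here.

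The promoter sequences of the 4 genes were searched for the core letters that Ikaros family proteins recognise. RefSeq (GRCm38.p6) gives 6 windows for the 4 genes, each from 250 bases before to 50 bases after a start site: 3 for Lzts2 and 1 for each other gene. The motif GGGAA was looked for on both strands, so that it reads TTCCC where it lies on the other strand. The Nrp1 window held 4 matches, 2 on each strand, and a window of Lzts2 held 1, while the B4galnt2 and Fgd5 windows and the 2 remaining ones of Lzts2 held 0. Of all 32851 mouse windows of this length, 62.7% held at least 1 match and 27.1% held 2 or more. The longer motif TGGGAA, which contains the shorter one, had 0 matches in all 6 windows and at least 1 in 25.6% of the 32851. For each gene 1 window is shown 5′ to 3′ on the gene's strand to let the members be compared, with every GGGAA or TTCCC in capitals. The 2 Lzts2 windows without a match, which start at positions 45014926 and 45014960 of chr19, are not shown.

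Nrp1 (chr8:128358823-128359122, + strand): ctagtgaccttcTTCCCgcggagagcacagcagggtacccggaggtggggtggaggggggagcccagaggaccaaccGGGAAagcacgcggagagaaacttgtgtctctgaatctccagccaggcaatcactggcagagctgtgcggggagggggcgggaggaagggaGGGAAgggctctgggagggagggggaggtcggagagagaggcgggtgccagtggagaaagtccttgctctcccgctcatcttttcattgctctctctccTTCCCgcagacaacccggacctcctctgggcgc

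Lzts2, window with a match (chr19:45017885-45018184, + strand): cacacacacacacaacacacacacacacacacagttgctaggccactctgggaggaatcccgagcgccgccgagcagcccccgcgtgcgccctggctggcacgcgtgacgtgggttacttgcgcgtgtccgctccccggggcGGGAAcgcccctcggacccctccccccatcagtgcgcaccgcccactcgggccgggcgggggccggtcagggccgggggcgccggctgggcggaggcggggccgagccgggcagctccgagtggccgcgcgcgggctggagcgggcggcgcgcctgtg

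B4galnt2 (chr11:95914822-95915121, − strand): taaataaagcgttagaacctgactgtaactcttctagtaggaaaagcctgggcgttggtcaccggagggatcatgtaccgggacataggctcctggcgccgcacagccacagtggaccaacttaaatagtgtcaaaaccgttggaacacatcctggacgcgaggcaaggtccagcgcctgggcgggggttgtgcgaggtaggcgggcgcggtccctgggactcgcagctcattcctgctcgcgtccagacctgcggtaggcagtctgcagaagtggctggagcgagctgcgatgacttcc

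Fgd5 (chr6:91978715-91979014, + strand): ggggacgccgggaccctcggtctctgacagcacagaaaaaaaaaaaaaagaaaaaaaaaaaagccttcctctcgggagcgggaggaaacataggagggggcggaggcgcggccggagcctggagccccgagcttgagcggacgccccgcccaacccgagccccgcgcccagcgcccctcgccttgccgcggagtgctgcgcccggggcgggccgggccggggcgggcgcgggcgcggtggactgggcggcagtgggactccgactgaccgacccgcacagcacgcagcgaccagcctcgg

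Counted from the start site, the Nrp1 matches began at −238, −173, −82 and 18, and the Lzts2 match at −108. The members therefore did not share this letter string near their starts. Binding was not measured here, and the windows cover no distant regulatory region.

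The knockouts were checked first on the targeted genes. Ikzf1 stood at 61.9 ± 5.22 RPKM in Cre only and 81.4 ± 6.34 in Ikzf3 KO cells, against 19.1 ± 0.662 in Ikzf1 KO (SD, n = 4 each) and 30.3 ± 7.12 in DKO cells (SD, n = 3). Ikzf3 stood at 41.8 ± 3.68 RPKM in Cre only and 48.3 ± 1.52 in Ikzf1 KO cells, against 17.8 ± 2.37 in Ikzf3 KO and 21.5 ± 1.96 in DKO cells. Each targeted gene was therefore lower in every library labelled as lacking it than in every library that kept it. The transcripts did not vanish, and values over a whole gene do not show which exons they came from. Depth recovered from the steps between RPKM values ran from 8.5 to 21 megareads. In bulk RNA, fewer cells expressing a gene and less RNA per cell cannot be told apart.

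B4galnt2 was weakly expressed in control cells, highest without Ikaros alone, and intermediate in DKO cells. Cre only libraries S16 to S19 held 0.803, 1.07, 0.345 and 0.426 RPKM of B4galnt2, and Ikzf1 KO libraries S12 to S15 held 18.1, 15.5, 18.8 and 11.4 RPKM. Ikzf3 KO libraries S1 to S4 held 0.978, 1.79, 0.0923 and 0.0957 RPKM, and DKO libraries S5 to S7 held 3.08, 6.27 and 4.91 RPKM. The Ikzf3 KO libraries overlapped the Cre only ones, whereas all DKO libraries lay above both groups and below all Ikzf1 KO libraries. The low values rest on few reads: 2 reads each in S3 and S4, and 8 to 27 in the Cre only libraries, against 324 to 549 in Ikzf1 KO libraries. Mean levels were 0.66 ± 0.336 RPKM in Cre only, 15.9 ± 3.33 in Ikzf1 KO, 0.738 ± 0.813 in Ikzf3 KO (SD, n = 4 each) and 4.75 ± 1.6 in DKO cells (SD, n = 3).

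Nrp1 was the member closest to silence in controls, and its level was raised in all 3 knockouts. Cre only libraries S16 to S19 held 0.262, 0.403, 0.0304 and 0.0125 RPKM of Nrp1, which are 37, 58, 4 and 2 reads. Ikzf1 KO libraries S12 to S15 held 5.42, 5.18, 5.05 and 4.74 RPKM, Ikzf3 KO libraries S1 to S4 held 4.33, 2.68, 2.38 and 1.95 RPKM, and DKO libraries S5 to S7 held 14.9, 7.45 and 8.52 RPKM. No library of a group overlapped another group: the order was Cre only, Ikzf3 KO, Ikzf1 KO and DKO. Mean levels were 0.177 ± 0.189 RPKM in Cre only, 2.83 ± 1.04 in Ikzf3 KO, 5.1 ± 0.284 in Ikzf1 KO (SD, n = 4 each) and 10.3 ± 4.05 in DKO cells (SD, n = 3). The Ikzf1 KO libraries were nearly alike, while S5 was well above S6 and S7.

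Fgd5 was highest without Ikaros alone, and its controls were uneven. Cre only libraries S16 to S19 held 1.31, 2.91, 0.307 and 0.156 RPKM of Fgd5, and Ikzf1 KO libraries S12 to S15 held 9.73, 7.6, 8.89 and 10.1 RPKM. Ikzf3 KO libraries S1 to S4 held 1.66, 1.54, 1.81 and 1.52 RPKM, and DKO libraries S5 to S7 held 2.37, 4.8 and 3.72 RPKM. All Ikzf1 KO libraries lay above every other library. The DKO libraries lay above all Ikzf3 KO libraries, but S5 was below the Cre only library S17. Mean levels were 1.17 ± 1.27 RPKM in Cre only, 9.08 ± 1.11 in Ikzf1 KO, 1.63 ± 0.132 in Ikzf3 KO (SD, n = 4 each) and 3.63 ± 1.22 in DKO cells (SD, n = 3).

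Lzts2 was high in both groups without Ikaros and low in both groups that kept it. Cre only libraries S16 to S19 held 1.21, 1.26, 1.07 and 0.649 RPKM of Lzts2, and Ikzf3 KO libraries S1 to S4 held 1.33, 1.6, 1.6 and 1.83 RPKM. Ikzf1 KO libraries S12 to S15 held 10.8, 7.97, 9.54 and 13.1 RPKM, and DKO libraries S5 to S7 held 19.6, 7.98 and 10.5 RPKM. The 2 groups that lacked Ikaros overlapped each other and lay above both others, and the Ikzf3 KO libraries lay just above the Cre only ones without overlap. Mean levels were 1.05 ± 0.276 RPKM in Cre only, 1.59 ± 0.208 in Ikzf3 KO, 10.4 ± 2.18 in Ikzf1 KO (SD, n = 4 each) and 12.7 ± 6.09 in DKO cells (SD, n = 3).

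**Figure D1:**
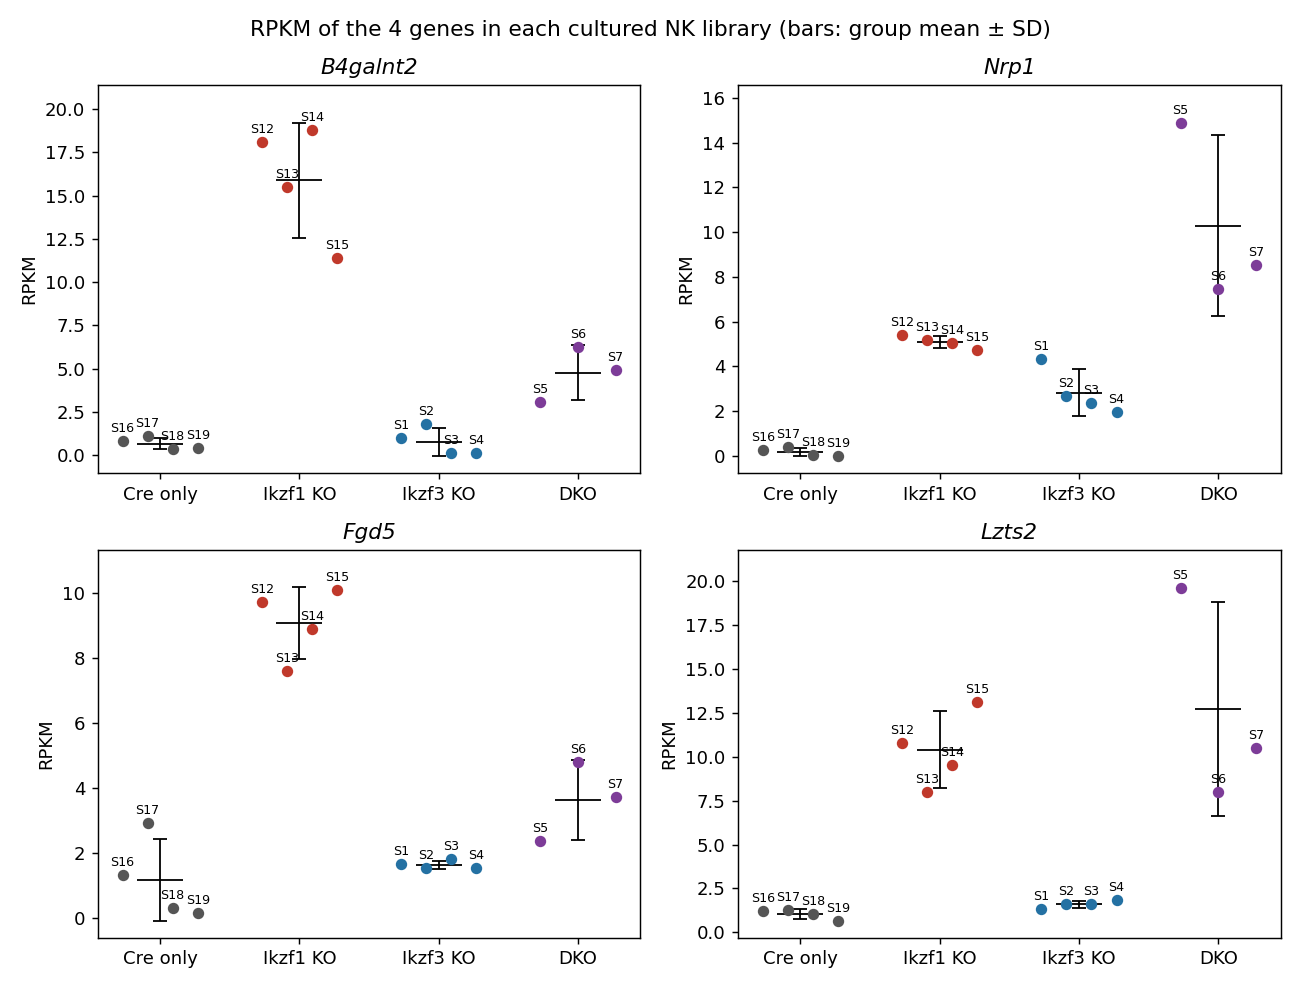
RPKM (linear axis) of B4galnt2, Nrp1, Fgd5 and Lzts2 in each library, by genotype; points are libraries and bars are the group mean ± SD (n = 4, and n = 3 in DKO). B4galnt2 and Fgd5 are highest in Ikzf1 KO cells (15.9 and 9.08 RPKM), Nrp1 in DKO cells (10.3 RPKM), and Lzts2 is similar in Ikzf1 KO and DKO cells (10.4 and 12.7 RPKM).

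The order of the group means thus differed between the members. Nrp1 ran from Cre only through Ikzf3 KO and Ikzf1 KO to DKO. B4galnt2 and Fgd5 ran from Cre only through Ikzf3 KO and DKO to Ikzf1 KO, and Lzts2 from Cre only through Ikzf3 KO and Ikzf1 KO to DKO. Neighbours in these orders whose libraries overlapped were Cre only and Ikzf3 KO for B4galnt2 and Fgd5, and Ikzf1 KO and DKO for Lzts2. In log2(RPKM + 0.5), the contrast that the selection used, Ikzf1 KO minus Cre only, came to 3.85 for B4galnt2, 3.09 for Nrp1, 2.83 for Fgd5 and 2.81 for Lzts2. In that contrast 3.54% of all genes tested were called higher at a Benjamini-Hochberg adjusted p under 0.05 in limma, a linear model fitted to all genes with shared spread. For Fgd5 the size of this difference followed the controls used: it was 3.71 without S16 and S17 and fell to 1.94 when S18 and S19 were dropped instead.

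Loss of Ikaros could be examined again in cells that already lacked Aiolos, in libraries whose values the selection did not use. The members were, however, chosen with earlier results of these data known. Of the 4 members 3 rose from Ikzf3 KO to DKO cells, in a contrast in which 10.2% of all genes tested rose. In limma with Benjamini-Hochberg adjustment, Lzts2 rose by 2.56 ± 0.25 (log2 difference ± SE, adjusted p = 9.04e-06), 7.97 times in mean RPKM. B4galnt2 rose by 2.28 ± 0.42 (limma adjusted p = 0.00172), 6.44 times in mean RPKM. Nrp1 rose by 1.68 ± 0.27 (limma adjusted p = 0.000589), 3.64 times in mean RPKM. The lowest DKO library exceeded the highest Ikzf3 KO library for each of the 4 genes, Fgd5 included. How many of all genes tested were separated in this way was not counted, so the separation is a description.

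Fgd5 did not pass this test, at 0.91 ± 0.42 (limma adjusted p = 0.136), although its DKO mean was 2.23 times the Ikzf3 KO mean. The fit shares its spread over all 4 groups. The same difference of 0.91 passed when the Cre only library S17 was left out (adjusted p = 0.0455), without S16 and S17 (adjusted p = 0.00674), and also when S18 and S19 were dropped (adjusted p = 0.018). Without S5, S15, S18 and S19 it was 1.15 (adjusted p = 0.0111). It did not pass in the other 24 of 28 alternatives, among them a fit of only the DKO and Ikzf3 KO libraries (adjusted p = 0.0623). The calls of B4galnt2, Nrp1 and Lzts2 held in all 28 alternative analyses that were run.

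Markers of cell types moved between the same groups. The 4 tested genes of the T cell list were all called higher in DKO than in Ikzf3 KO cells, beside 10.2% of all genes tested. Against Cre only cells, 2 of the 4 were called higher in DKO cells and 1 was called lower in Ikzf3 KO cells. The shares of all genes tested there were 8.06% and 7.88%. Bcl11b had means of 2.05 RPKM in Cre only, 0.29 in Ikzf3 KO and 1.3 in DKO cells. The summed level of the 8 list members with a row ran from 122 to 275 RPKM in DKO libraries and from 18.6 to 45.7 in Ikzf3 KO libraries; Cd3d and Cd3e, subunits of the T cell receptor complex, led with DKO means of 135 and 37.3 RPKM, and the co-receptor gene Cd4 had 0.94. The list of plasmacytoid dendritic cell genes, of which 3 of 8 had a row, summed to 67.2 to 163 RPKM in DKO and 41.1 to 52.3 in Ikzf3 KO libraries. Nearly all of this sum was Bst2, an interferon-induced gene (means of 120 and 44.6 RPKM), while Cox6a2 had 0.204 and 2.32 RPKM and Ccr9 was under 1 RPKM in every library. The regulatory T cell list summed to 68.8 to 98.2 RPKM in DKO and 54.3 to 91.9 in Ikzf3 KO libraries, with no row for its defining gene Foxp3. Most of this sum was Tnfrsf18, with means of 50.6 and 54.4 RPKM. Ikzf2 had 22.3 and 3.75 RPKM and Il2ra 13.8 and 3.79. Ctla4 went the other way, with 0.539 and 12.8 RPKM, as did Lrrc32, under 1 RPKM in every library. Of the 4 tested, 1 was called higher and 1 lower in DKO cells, beside 10.2% and 9.85% of all genes tested. The part of these cells or genes in the members' rise was not tested.

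Endothelial cells, in which Fgd5 and Nrp1 are known, were represented by few markers. Of 16 endothelial markers 5 had a row in the table analysed here, and the defining genes Cdh5, Kdr, Tie1 and Tek did not. Pecam1, which leukocytes also express, made up most of the sum, which was lowest in DKO libraries (8.19 to 13.6 RPKM, against 35.0 to 49.5 in Cre only libraries). Egfl7, Esam and Plvap went the other way, with DKO means of 0.772, 0.488 and 0.673 RPKM. Their Cre only means were 0.298, 0.0417 and 0.12 RPKM. Flt1 had 0.0184 RPKM in DKO and 0.0469 in Cre only cells. Of the stem cell list 5 of 12 genes had a row, and their sum was lowest in DKO libraries (41.9 to 51.6 RPKM, against 65.0 to 137 in Cre only libraries). Kit, a cytokine receptor gene that made up most of it, had means of 104 RPKM in Cre only, 83.2 in Ikzf3 KO and 39.9 in DKO cells. Meis1, Slamf1 and Tal1 were under 1 RPKM in every library but went the other way, with DKO means of 0.113, 0.462 and 0.136 RPKM. Their Cre only means were 0.0419, 0.0579 and 0.0358 RPKM. Procr, which encodes the endothelial protein C receptor, was also higher in DKO cells. It was listed at 0 in all Cre only libraries and had means of 1.33 RPKM in Ikzf1 KO and 7.4 in DKO cells. The 10 NK identity genes with a row were present in all 4 groups, but not at like levels. Ncr1, which encodes the receptor NKp46, had means from 112 to 201 RPKM. Prf1, the perforin gene, had means of 720, 145, 671 and 35.5 RPKM in Cre only, Ikzf1 KO, Ikzf3 KO and DKO cells. Of the 10 tested, 3 were called lower and 0 higher in DKO than in Cre only cells, beside 10.6% and 8.06% of all genes tested. The summed NK list, dominated by granzyme B, ran from 2700 to 5400 RPKM in DKO libraries and from 10500 to 14600 in Cre only libraries.

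Loss of Aiolos alone changed 1 member. Nrp1 rose from Cre only to Ikzf3 KO cells by 2.29 ± 0.25 on the log2 scale (limma with Benjamini-Hochberg adjustment, adjusted p = 9.36e-05), 16 times in mean RPKM, while 6.3% of all genes tested rose. The Cre only libraries in this contrast are those on which the members were chosen as low. Lzts2 differed by 0.45 ± 0.24 (limma adjusted p = 0.191) without overlap between libraries, and Fgd5 by 0.66 ± 0.39 (limma adjusted p = 0.239). B4galnt2 differed by −0.11 ± 0.39 (limma adjusted p = 0.866). The wide errors of B4galnt2 and Fgd5 leave changes in either direction possible.

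Pairs of libraries inside these groups set the values for B4galnt2 and Fgd5. For B4galnt2, the mean of the Ikzf3 KO libraries S1 and S2 was 14.7 times that of S3 and S4, and its difference turned to 0.71 without S3 and S4 (adjusted p = 0.163), to 0.17 without S3 and to 0.16 without S4. For Fgd5, the mean of the Cre only libraries S16 and S17 was 9.11 times that of S18 and S19. Its difference passed the test at 1.11 without S17 (adjusted p = 0.0349) and at 1.55 without S16 and S17 (adjusted p = 0.00287), and turned to −0.22 without S18 and S19. Nrp1 also differed between these Cre only pairs, by 15.5 times, but its rise passed in all 28 alternatives, with log2 differences from 1.68 to 4.98.

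With both factors lost, all 4 members were called higher than in control cells, Fgd5 with overlapping libraries. From Cre only to DKO cells, in a contrast in which 8.06% of all genes tested rose, Nrp1 rose most, by 3.98 ± 0.27 on the log2 scale (limma adjusted p = 2.32e-07), 58.3 times in mean RPKM. Lzts2 rose by 3.01 ± 0.25 (limma adjusted p = 2.26e-06), B4galnt2 by 2.18 ± 0.42 (limma adjusted p = 0.00264) and Fgd5 by 1.58 ± 0.42 (limma adjusted p = 0.018). The control libraries are again those used by the selection. The Fgd5 call was lost without S6 (1.37, adjusted p = 0.0974), without S7 (1.54, adjusted p = 0.0585) and without S18 (1.33, adjusted p = 0.0579). It was 0.69 without S18 and S19 (adjusted p = 0.134).

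Loss of Aiolos in cells that already lacked Ikaros lowered 1 member. From Ikzf1 KO to DKO cells B4galnt2 fell by 1.67 ± 0.42 on the log2 scale (limma adjusted p = 0.0256), to 0.298 of its mean RPKM, while 3.72% of all genes tested fell and 3.76% rose. Fgd5 differed by −1.25 ± 0.42 (limma adjusted p = 0.0893), Nrp1 by 0.89 ± 0.27 (limma adjusted p = 0.0607) and Lzts2 by 0.20 ± 0.25 (limma adjusted p = 0.706). For B4galnt2, Fgd5 and Nrp1 the libraries of the 2 groups did not overlap, a separation that was not counted over all genes tested. The Ikzf1 KO libraries were chosen as high, and the contrast subtracts them.

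These calls sat close to the threshold. That of B4galnt2 was lost when S5, S6, S7, S12, S13 or S14 was left out, at log2 differences from −1.88 to −1.42 and adjusted p from 0.0523 to 0.0855. Nrp1 passed without S1 (adjusted p = 0.0368) or S4 (adjusted p = 0.0436) at the same difference of 0.89. Fgd5 passed without S17 (adjusted p = 0.0206) at −1.25. Lzts2 turned to −0.15 without S5, the DKO library with the highest Lzts2 level.

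**Figure D2:**
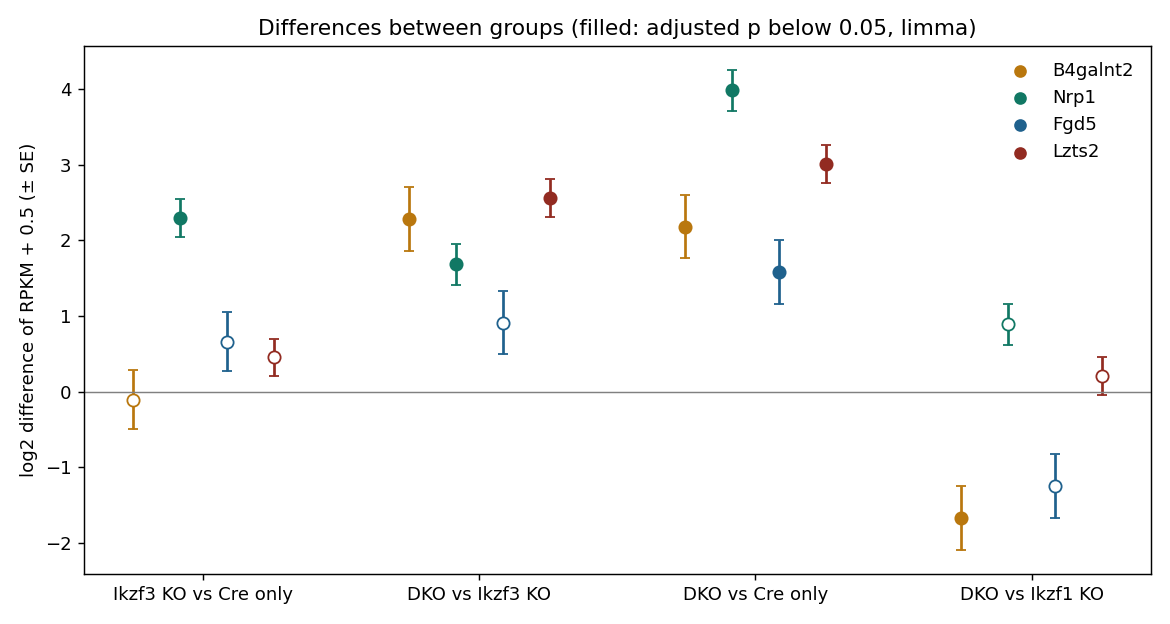
Log2 differences in RPKM + 0.5 (± SE) for the 4 genes in the 4 tested contrasts between 2 groups; filled points have an adjusted p under 0.05 in limma. In DKO against Ikzf3 KO cells Lzts2, B4galnt2 and Nrp1 are filled (2.56, 2.28 and 1.68) and Fgd5 is open (0.91); in Ikzf3 KO against Cre only cells Nrp1 alone is filled (2.29).

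The DKO levels were then set against what the single knockouts would give together. Adding the Ikzf1 KO and Ikzf3 KO differences to the Cre only mean gave 16 RPKM for B4galnt2 and 9.54 for Fgd5, well above the DKO means of 4.75 and 3.63. For Nrp1 the sum was 7.75 RPKM against a DKO mean of 10.3, and for Lzts2 it was 10.9 against 12.7. On the log2 scale, where a departure means that the effects did not multiply, Nrp1 was called lower than the product of the single changes, at −1.41 ± 0.37 (limma with Benjamini-Hochberg adjustment, adjusted p = 0.0348). In this contrast 2.92% of all genes tested were called lower. It subtracts the Ikzf1 KO minus Cre only difference for which Nrp1 was chosen, which favours a negative value. The Nrp1 call was lost in 10 of 27 alternatives. Multiplying the single ratios gave 81.6 RPKM for Nrp1, so that its DKO mean lay above the sum and below the product.

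For the other members the log2 departure was −1.91 ± 0.57 for Fgd5 (limma adjusted p = 0.0626), −1.56 ± 0.57 for B4galnt2 (limma adjusted p = 0.131) and −0.25 ± 0.35 for Lzts2 (limma adjusted p = 0.709). The contrast subtracts the Ikzf1 KO minus Cre only difference for which the members were chosen. The Nrp1 call was lost without any of S6, S7, S12, S13, S14, S18 or S19, at −1.41 to −1.22 and adjusted p from 0.0625 to 0.107, and with a pseudocount of 1 (−0.85, adjusted p = 0.122). Fgd5 passed without S17 (−2.36, adjusted p = 0.00672). Lzts2 stood at 0.02 without S6.

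The members were then placed among genes that start the same way. Including them, 106 tested genes had a Cre only mean under 2 RPKM and an Ikzf1 KO mean at least 4 times as high. Some of the others, such as Fam169b, reached 1 RPKM in DKO libraries only. Its means were 0.00242, 0.0271, 0.0294 and 3.65 RPKM in Cre only, Ikzf1 KO, Ikzf3 KO and DKO cells. Such genes passed the filter of 1 RPKM in 3 libraries through the DKO group, so their rise to it was built in. Counts, medians and ranks in contrasts with DKO cells are therefore a description. Of the 102 others, 74 were called higher and 6 lower from Ikzf3 KO to DKO cells, with a median log2 difference of 1.79. Among all 106 in that contrast, Lzts2 ranked 27, B4galnt2 36, Nrp1 58 and Fgd5 74, so the members lay within the range of the other genes. In Ikzf3 KO against Cre only cells 24 of the 102 were called higher and 2 lower, beside 6.3% and 7.88% of all genes tested. The median was 0.15, and Nrp1 ranked 9. All 102 were picked as low in these Cre only libraries, which favours a rise. B4galt6, for example, passed the filter through the Ikzf3 KO group. Its means were 0.0498, 0.408, 2.07 and 0.227 RPKM in Cre only, Ikzf1 KO, Ikzf3 KO and DKO cells. The counts and ranks of this contrast are therefore a description too. In DKO against Cre only cells 85 rose, with Nrp1 at rank 4 and Lzts2 at rank 21.

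B4galnt2 and Fgd5 stood low among these genes in the step from Ikzf1 KO to DKO. Of the 102 other genes 40 rose and 10 fell there, with a median of 0.58, and 70 had a higher mean in DKO than in Ikzf1 KO cells. B4galnt2 ranked 103 and Fgd5 95 of 106. The others include genes that reached 1 RPKM in DKO libraries only, such as Dock1 (means of 0.138 RPKM in Ikzf1 KO and 1.87 in DKO cells). The filter built in their rise here, so these counts and ranks are a description. Among the others with the highest Ikzf1 KO means were the serine protease genes Ctsg and Cma1. Ctsg had means of 0.55 ± 0.472 RPKM in Cre only, 12.4 ± 4.28 in Ikzf1 KO, 50.1 ± 19.2 in Ikzf3 KO and 16.9 ± 12.1 in DKO cells, and rose by 5.64 ± 0.53 (limma adjusted p = 3.94e-05) from Cre only to Ikzf3 KO cells. Cma1 rose there by 4.15 ± 0.64 (limma adjusted p = 0.00116). Both genes, like Nrp1, were picked as low in the Cre only libraries of this contrast, which favours a rise. For both genes, as for Nrp1, the Ikzf3 KO mean lay far above the Cre only mean; for B4galnt2 the libraries of those groups overlapped.

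Plxdc2, a plexin domain gene, had means of 1.02, 8.52, 9.16 and 17.4 RPKM in Cre only, Ikzf1 KO, Ikzf3 KO and DKO cells. Khdc1c had 1.64, 8.84, 4.92 and 8.96 RPKM, and Psg17 had 1.5, 7.35, 0.104 and 2.88 RPKM. The predicted gene Gm1821 had the highest Ikzf1 KO mean of the others, 17 ± 12.8 RPKM, with a spread nearly as large as the mean.

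**Figure D3:**
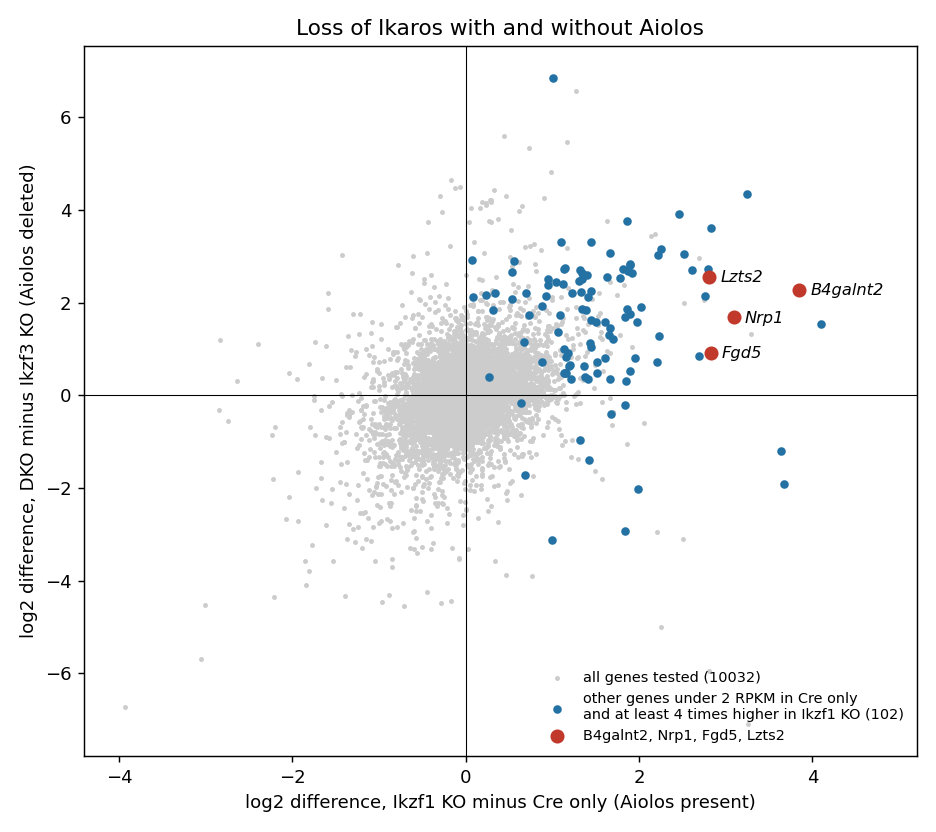
Log2 differences upon loss of Ikaros with Aiolos present (x axis, Ikzf1 KO minus Cre only) and with Aiolos deleted (y axis, DKO minus Ikzf3 KO) for 10032 genes in grey, the 102 other genes that start low and rise in blue, and the 4 members in red. The members sit at the right by selection, between 2.81 and 3.85, and at 0.91 (Fgd5) to 2.56 (Lzts2) on the y axis.

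The members' profiles over the 15 libraries were alike to differing degrees. On log2(RPKM + 0.5), Pearson's r was highest between B4galnt2 and Fgd5 (0.883) and lowest between B4galnt2 and Nrp1 (0.641). The points share their libraries and groups, and all members were chosen for the same difference, so r is a description. Among 2224 genes with an SD of at least 0.5 over the libraries, the genes most like B4galnt2 were Acy3 (r = 0.96), Nlrp1a (0.956) and Slc15a3 (0.95). Slc15a3, a peptide and histidine transporter gene, had means of 0.252, 1.77, 0.168 and 0.698 RPKM in Cre only, Ikzf1 KO, Ikzf3 KO and DKO cells. Nlrp1a, an inflammasome sensor gene, had 0.684, 4.03, 0.279 and 1.85 RPKM.

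Most like Nrp1 were Tns3 (r = 0.979), Plxdc2 (0.956) and Zscan12 (0.95). Tns3, which encodes the adhesion protein tensin 3, had means of 0.177, 2.11, 1.67 and 3.27 RPKM in Cre only, Ikzf1 KO, Ikzf3 KO and DKO cells, the same order as Nrp1. Most like Fgd5 were Gpr146 (0.949), Ifitm3 (0.916) and Inka1 (0.91). Ifitm3, an interferon-induced antiviral membrane protein gene, had 54.9, 461, 139 and 340 RPKM. Among the genes most like Lzts2 were Ica1 (0.958) and C1qtnf1 (0.956). C1qtnf1, a secreted protein gene, had 0.0272, 4.53, 0.0316 and 10.3 RPKM, so it was near 0 in both groups that kept Ikaros.

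Among the genes likest to the mean profile of the 4 members were Ifitm3 and Igsf23 (both r = 0.957), Gstt3 (0.956) and Oasl2 (0.94). Oasl2, an interferon-stimulated gene, had means of 0.586, 7.04, 1.17 and 5.83 RPKM in Cre only, Ikzf1 KO, Ikzf3 KO and DKO cells.

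**Figure D4:**
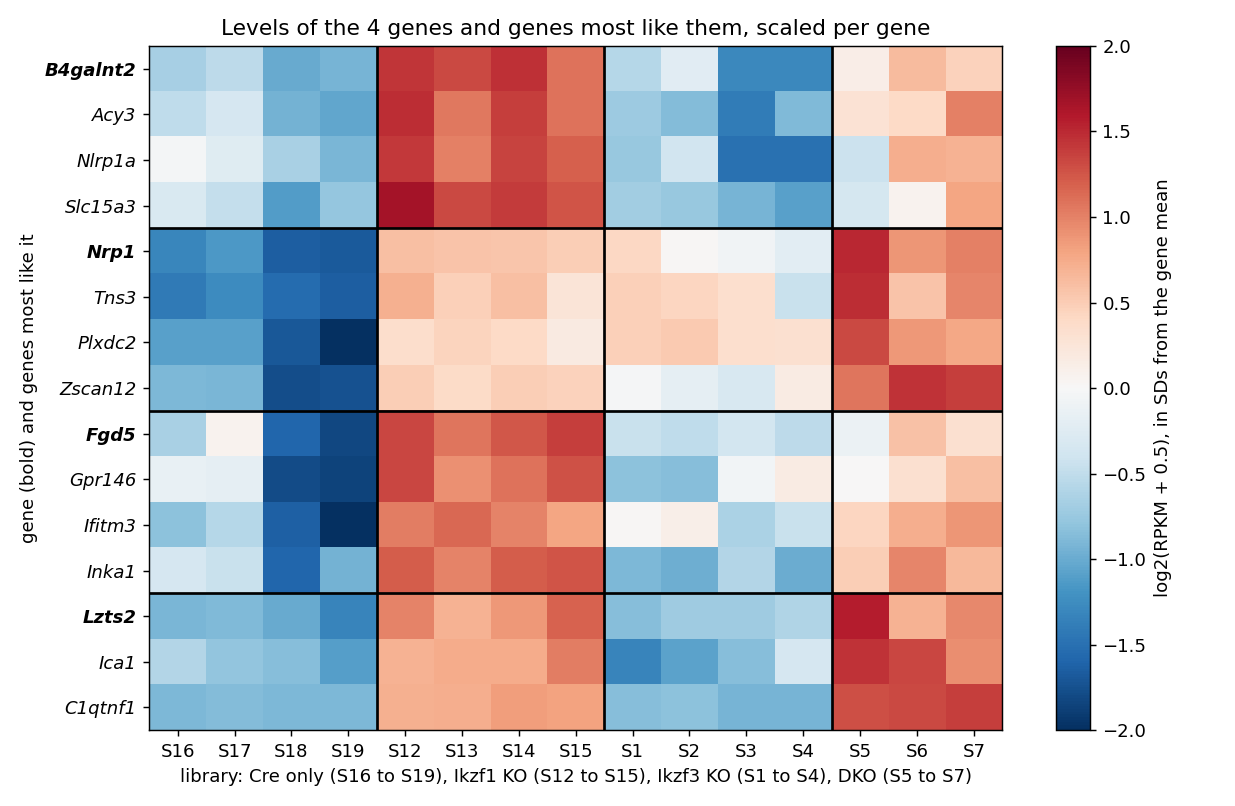
Level of each member (bold) and of 2 or 3 genes most like it in the 15 libraries, as SDs of log2(RPKM + 0.5) from the gene's mean; red is high and blue is low. The Nrp1 block is intermediate in Ikzf3 KO libraries S1 to S4 where the Lzts2 block is low, and S18 and S19 are the lowest Cre only libraries for Fgd5 (0.307 and 0.156 RPKM).

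Genes near the members were called from Ikzf3 KO to DKO cells about as often as all genes. Within 250 kb of the 4 genes 21 genes had a row and 19 were tested, of which 2 rose and 2 fell from Ikzf3 KO to DKO cells, where 10.2% of all genes tested rose and 9.85% fell. Kazald1, 48130 bases from Lzts2, differed most. It had means of 0.298 ± 0.115 RPKM in Cre only, 1.22 ± 0.141 in Ikzf1 KO, 1.09 ± 0.681 in Ikzf3 KO and 7.6 ± 2.44 in DKO cells, and rose by 2.41 ± 0.31 (limma adjusted p = 9.84e-05) from Ikzf3 KO to DKO cells. Twnk, which lies 1652 bases from Lzts2 and encodes the mitochondrial DNA helicase, differed by 0.47 ± 0.24 (limma adjusted p = 0.166).

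Close to B4galnt2, Gngt2, a G protein gamma subunit gene 20209 bases away, moved the other way from Ikzf3 KO to DKO cells. It fell from 46.9 ± 18.2 RPKM in Ikzf3 KO to 19.9 ± 1.67 in DKO cells, by 1.15 ± 0.24 on the log2 scale (limma adjusted p = 0.0045). Abi3, 23467 bases away, differed by −0.06 ± 0.23 in that contrast (limma adjusted p = 0.865). Near Nrp1 the integrin gene Itgb1 differed by 0.00 ± 0.17 (limma adjusted p = 0.988), and the predicted gene Gm9204 by −1.02 ± 0.31 (limma adjusted p = 0.0298), a call lost without S3, S5 or S6 (−1.01 to −0.71, adjusted p up to 0.125). Near Fgd5, Mrps25, a mitochondrial ribosomal gene, differed by 0.60 ± 0.15 (limma adjusted p = 0.0138), lost without S6 or S7 (0.52 and 0.53). In DKO against Ikzf1 KO cells, where B4galnt2 was called lower, Gngt2 differed by −1.42 ± 0.24 (limma adjusted p = 0.00224). Abi3 differed there by −1.15 ± 0.23 (limma adjusted p = 0.0056). Of 7 tested genes within 250 kb of B4galnt2, 2 were called lower in that contrast, beside 3.72% of all genes tested.

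Of 40 tested genes of terminal glycan synthesis, the pathway of B4galnt2, 8 rose and 4 fell from Ikzf3 KO to DKO cells, where 10.2% of all genes tested rose and 9.85% fell. The median log2 difference was 0.25 against −0.001 over all genes. B3galt5, a galactosyltransferase gene, rose by 1.91 ± 0.28 (limma adjusted p = 0.00028), to 5.56 ± 1.68 RPKM from 1.14 ± 0.571, but its Cre only and Ikzf1 KO means were 4.36 and 4.2 RPKM, unlike the member's. Galnt12, which starts O-glycans, rose by 1.00 ± 0.15 (limma adjusted p = 0.000411), and Gcnt1, which branches them, fell by 0.91 ± 0.13 (limma adjusted p = 0.000289). From Cre only to DKO cells 8 rose and 6 fell (median 0.16), where 8.06% of all genes tested rose and 10.6% fell. Fut8, the core fucosyltransferase gene, rose by 1.10 ± 0.18, while Galnt6 fell by 1.40 ± 0.22 and B3gnt7 by 1.25 ± 0.21 (limma adjusted p = 0.000687, 0.00058 and 0.0008).

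Ligands and partners of neuropilin 1 were measured in part. In the list of semaphorin, plexin and VEGF genes 25 of 44 had a row and 16 were tested, of which 3 rose and 1 fell from Ikzf3 KO to DKO cells (median −0.03), beside 10.2% and 9.85% of all genes tested. Sema4b, a membrane semaphorin gene, rose from 2.71 ± 0.379 to 8.84 ± 3.52 RPKM, by 1.49 ± 0.24 (limma adjusted p = 0.000645). Vegfa, whose product binds neuropilin 1, fell from 31.7 ± 10.2 to 1.57 ± 2.29 RPKM, by 4.48 ± 1.09 (limma adjusted p = 0.00992), a call lost without S6 (−4.04, adjusted p = 0.0543). Gipc1, which encodes an adaptor that binds the neuropilin tail, differed by 0.52 ± 0.16 (limma adjusted p = 0.0346). This call was lost in 11 of 28 alternatives, among them without any of S3 to S7 (0.39 to 0.57, adjusted p up to 0.0963). Over all alternatives the difference went down to 0.22 and the limma adjusted p up to 0.2498.

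From Cre only to DKO cells 5 of the 16 rose and 4 fell (median 0.07), beside 8.06% and 10.6% of all genes tested. Vegfc, like Nrp1, was lowest in Cre only and highest in DKO cells: its means were 4.25 ± 1.21 RPKM in Cre only, 7.64 ± 0.467 in Ikzf1 KO, 11.3 ± 1.21 in Ikzf3 KO and 22.1 ± 11.4 in DKO cells. Its DKO rise was 2.18 ± 0.26 (limma adjusted p = 5.35e-05). Sema6d fell by 1.76 ± 0.32 (limma adjusted p = 0.00146) and the kinase gene Fyn by 0.72 ± 0.12 (limma adjusted p = 0.000631).

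Among regulators and effectors of Cdc42, the target of Fgd5, 40 genes were tested. Of these 5 rose and 5 fell from Ikzf3 KO to DKO cells (median −0.11), near the 10.2% and 9.85% of all genes tested. From Cre only to DKO cells 4 rose and 11 fell (median −0.25), beside 8.06% and 10.6% of all genes tested. Fgd1, a gene of the same exchange factor family, was low in Cre only and Ikzf3 KO cells and highest in Ikzf1 KO cells, as B4galnt2 and Fgd5 were: it stood at 0.725 ± 0.164 RPKM in Cre only, 3.33 ± 0.136 in Ikzf1 KO, 0.723 ± 0.263 in Ikzf3 KO and 2.58 ± 1.08 in DKO cells. It rose by 1.30 ± 0.22 from Ikzf3 KO to DKO cells (limma adjusted p = 0.000847), where Fgd5 did not pass. Vav2, another exchange factor gene, rose there by 1.18 ± 0.19 (limma adjusted p = 0.000609) and Arhgap31, which encodes a GTPase-activating protein, by 1.31 ± 0.21 (limma adjusted p = 0.000652).

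Dock8, which encodes a leukocyte exchange factor for Cdc42, fell by 1.21 ± 0.20 from Cre only to DKO cells (limma adjusted p = 0.000686), from 122 ± 14.6 to 52.7 ± 9.63 RPKM. Dock10 fell by 0.93 ± 0.17 (limma adjusted p = 0.00177).

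In the list of beta-catenin signalling and katanin genes, the partners of Lzts2, 29 genes were tested. From Ikzf3 KO to DKO cells 3 rose and 6 fell (median −0.01), beside 10.2% and 9.85% of all genes tested. From Cre only to DKO cells 3 rose and 5 fell (median −0.08), beside 8.06% and 10.6%. Lzts1, the paralogue of Lzts2, moved the other way: its means were 1.5 ± 0.366 RPKM in Cre only, 0.707 ± 0.134 in Ikzf1 KO, 0.742 ± 0.287 in Ikzf3 KO and 0.206 ± 0.11 in DKO cells. It fell by 1.5 ± 0.20 from Cre only to DKO cells (limma adjusted p = 0.00013). Axin2, a target and brake of beta-catenin signalling, rose there by 1.44 ± 0.28 (limma adjusted p = 0.00302), and Tcf7, a beta-catenin partner in lymphocytes, by 1.82 ± 0.39 (limma adjusted p = 0.00513). Lrp5, a Wnt co-receptor gene, rose by 1.25 ± 0.26 from Ikzf3 KO to DKO cells (limma adjusted p = 0.00345), and Katnal1, a katanin gene, fell by 0.86 ± 0.17 (limma adjusted p = 0.00281).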

How the data were processed

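Polyadenylated RNA of cultured NK cells was sequenced, with single-end reads per the labels' protocols. Per the submitters' processing notes, the tools were STAR, featureCounts and limma 3.34.9 with build mm10; settings are not given in the sources used here. The authors deposited RPKM values for 11736 genes in 15 libraries and these, not counts, were analysed. Columns were assigned to cultured groups by genotype and number of columns. Genes with at least 1 RPKM in at least 3 libraries (10032) were transformed to log2(RPKM + 0.5), so that fold changes of low genes are understated. The fit took 1 mean for each group, a mean-variance trend and robust moderation in limma 3.58.1 under R 4.3.3 (11 residual degrees of freedom), 2-sided, with Benjamini-Hochberg adjustment over all genes; called means adjusted p under 0.05. The departure from the single knockouts is (DKO − Ikzf3 KO) − (Ikzf1 KO − Cre only). P-values measure the spread between these samples, which may be partly technical. The fit was tested on simulated data.

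Reads were recovered as whole multiples, within 0.02 reads, of the smallest RPKM step times the gene length of GENCODE release 21 (11732 genes matched), for 11290 genes (96.2%). Lzts2 gave whole reads at a length of 2921 and not at its annotated 3608, so its read counts rest on that length; its RPKM are as deposited. The members, the 16 gene lists, the naming rules and the sets of libraries left out were chosen with earlier results of these data known. Named genes are the members, their 3 likest genes (5 for their mean), list members with the smallest adjusted p in DKO against Ikzf3 KO or Cre only cells (up to 3 each), genes within 250 kb, and the 6 genes with the highest Ikzf1 KO mean among those that start low and rise; some genes these rules name are not reported here. Alternatives were other pseudocounts, filters, weights and normalizations, fits of the compared groups only, and libraries left out. A voom fit on recovered reads was added after seeing the data. Python 3.11.15, numpy 2.4.6, pandas 2.3.3 and matplotlib 3.10.9 were used.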

Additional observations from a re-analysis of the deposited data

Results flagged for a closer look

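For Nrp1 the log2 effect of losing Ikaros was smaller without Aiolos than with it, by a test of the difference between the 2 effects (log2 departure −1.41 ± 0.37, limma adjusted p = 0.0348). The departure subtracts the Ikzf1 KO minus Cre only difference for which Nrp1 was chosen, and this choice favours a negative value. The call was lost in 10 of 27 alternatives, among them a pseudocount of 1 (−0.85, adjusted p = 0.122) and the removal of S6, S7, S12, S13, S14, S18 or S19 alone (−1.41 to −1.22). Mean Nrp1 went from 0.177 to 5.1 RPKM with Aiolos present and from 2.83 to 10.3 RPKM with Aiolos deleted, so that in RPKM the second step was the larger one. Among 12 sets of 4 libraries (4 genes in 3 genotypes) no library stood apart by Dixon's test, and the DKO group of 3 was not examined.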

How the results depend on the processing

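Over 28 alternatives, 3 or 4 members were called in DKO against Ikzf3 KO cells and 3 or 4 in DKO against Cre only cells. In Ikzf3 KO against Cre only cells 2 were called without S16 and S17, and 1 to 2 with single libraries left out. In DKO against Ikzf1 KO cells 0 were called with a pseudocount of 0.1 and without S5, S15, S18 and S19, 2 with quantile normalization and when S3 with S4, S16 with S17, or S18 with S19 were dropped, and 3 with a pseudocount of 1 and with only the groups compared; leaving out single libraries gave 0 to 2. For the departure from the single knockouts 2 were called with a pseudocount of 1, with array weights and without S3 and S4 or S16 and S17, and 0 when S18 and S19, or S5, S15, S18 and S19, were dropped, with 0 to 2 for single libraries.

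Direction turned for 4 values, none called. B4galnt2 in Ikzf3 KO against Cre only cells was 0.59 with array weights, 0.71 when S3 and S4 were dropped, 0.24 without S16 and S17, 0.17 without S3, 0.16 without S4 and 0.05 without S17 (−0.48 to 0.17 over single libraries). Fgd5 there was −0.22 without S18 and S19 and −0.22 without S5, S15, S18 and S19. Lzts2 in DKO against Ikzf1 KO cells was −0.15 without S5 (up to 0.47 over single libraries) and −0.03 without S5, S15, S18 and S19, and its departure was 0.02 without S6 (down to −0.6). The cause was not tested.

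The number of genes called in the whole table, beside which the members are read, moved more. It was 2012 in DKO against Ikzf3 KO cells (664 to 3080 over all alternatives), 1423 in Ikzf3 KO against Cre only (431 to 2985), 1872 in DKO against Cre only (976 to 3642), 750 in DKO against Ikzf1 KO (335 to 2125), 657 for the departure (344 to 1447) and 634 in Ikzf1 KO against Cre only (332 to 3746). The fit on recovered reads, added after seeing the data, gave larger differences for the lowest genes, such as 5.89 for Nrp1 in Ikzf1 KO against Cre only cells. Depth limits the lowest values, such as 2 reads of Nrp1 in S19. No paired analysis was possible because the columns carry no replicate numbers of the labels.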
